A study of Sus scrofa with 15 samples.

Results

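The genes described here are 10 genes of the intestinal brush border, 5 for enzymes of its membrane (ANPEP, DPP4, SI, LCT and MME) and 5 for structural proteins of its microvilli (VIL1, EZR, MYO1A, EPS8 and PLS1). They were chosen by name and matched through their NCBI Gene numbers, and all 10 were found among the 19000 genes of the knockdown table and the 17001 genes of the overexpression table. RNA was sequenced from IPEC-J2, a pig jejunal epithelial cell line, after lentiviral vectors against or for a microRNA (miRNA), in 5 groups of 3 libraries. In the knockdown table, Lv3NC is the control vector, Lv133KD the knockdown vector for miR-133, and Lv143KD a knockdown vector whose target is given as miR-133 in the design text while its label names miR-143. In the overexpression table, Lv20NC is the control vector and OV143 the vector that overexpresses miR-143. All cells carried a lentiviral vector, controls included. The sources used here do not give the promoters of the vectors, the time after transduction, or whether the cells were pools or clones. Nothing in the labels ties the 3 libraries of a group to separate cultures, and a p-value then reflects the spread of these libraries only, which may be technical.

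The brush border is the layer of packed microvilli on the apical face of an enterocyte. Each microvillus holds a bundle of actin filaments crosslinked by villin, plastin 1 and espin, tied to the membrane by ezrin and by myosin 1A, and carrying EPS8 at its tip, where protocadherins join neighbouring microvilli. Its membrane holds the hydrolases of terminal digestion: sucrase-isomaltase and lactase split sugars, while aminopeptidase N, dipeptidyl peptidase 4 and neprilysin cut peptides. In pigs, aminopeptidase N is also an entry receptor of the transmissible gastroenteritis coronavirus.

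Values are FPKM, fragments per kilobase of transcript scaled by the mapped fragments of the library, which divides by gene length and so allows levels to be compared between genes within a table. Both tables were normalised separately, and tests were made within a table. Read depth cannot be recovered from FPKM and is unknown. The FPKM of a library summed to 486086 to 520630 in the knockdown table and to 518578 to 558042 in 5 libraries of the overexpression table, while OV143 replicate 2 stood apart at 662022. Epithelial markers were high in both tables, with KRT8 at 741.2 ± 128.7 FPKM (SD, n = 9) and 754.2 ± 144.4 FPKM (SD, n = 6). Of the enterocyte markers, APOA1, APOA4 and SLC5A1 reached the filter in each table, while FABP1, APOB and RBP2 averaged under 1 FPKM in both. The 3 crypt and stem, 3 goblet and 3 enteroendocrine markers that were listed averaged at most 0.1 FPKM. In bulk libraries, fewer cells of a type and less RNA per cell cannot be told apart.

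The structural genes set the upper end of the range. In 15 of 15 libraries the order was EZR, EPS8, PLS1, DPP4 and then the other 6 genes, and LCT and MYO1A were the lowest 2. In the knockdown table, the 9 libraries averaged 202.6 ± 9.90 FPKM (SD) for EZR, 75.3 ± 7.97 for EPS8, 32.9 ± 3.03 for PLS1, 17.3 ± 2.56 for DPP4 and 3.17 ± 0.341 for SI. Lower in the same table came VIL1 at 1.80 ± 0.491 FPKM, MME at 1.39 ± 0.15, ANPEP at 0.987 ± 0.577, LCT at 0.117 ± 0.0122 and MYO1A at 0.0256 ± 0.0142. The ranges of SI and VIL1 touched in that table, and those of VIL1, MME and ANPEP overlapped, so their order there is not set beyond the spread of the libraries. In the overexpression table the ranges of PLS1 and DPP4, of SI and VIL1, of ANPEP and MME, and of LCT and MYO1A overlapped, as did those of SI and ANPEP, which are not next to each other in the order. EZR lay above 98.3% of listed genes by mean FPKM in the knockdown table and above 97.8% in the overexpression table, and ANPEP above 39.4% and 36.0%.

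**Figure D1:**
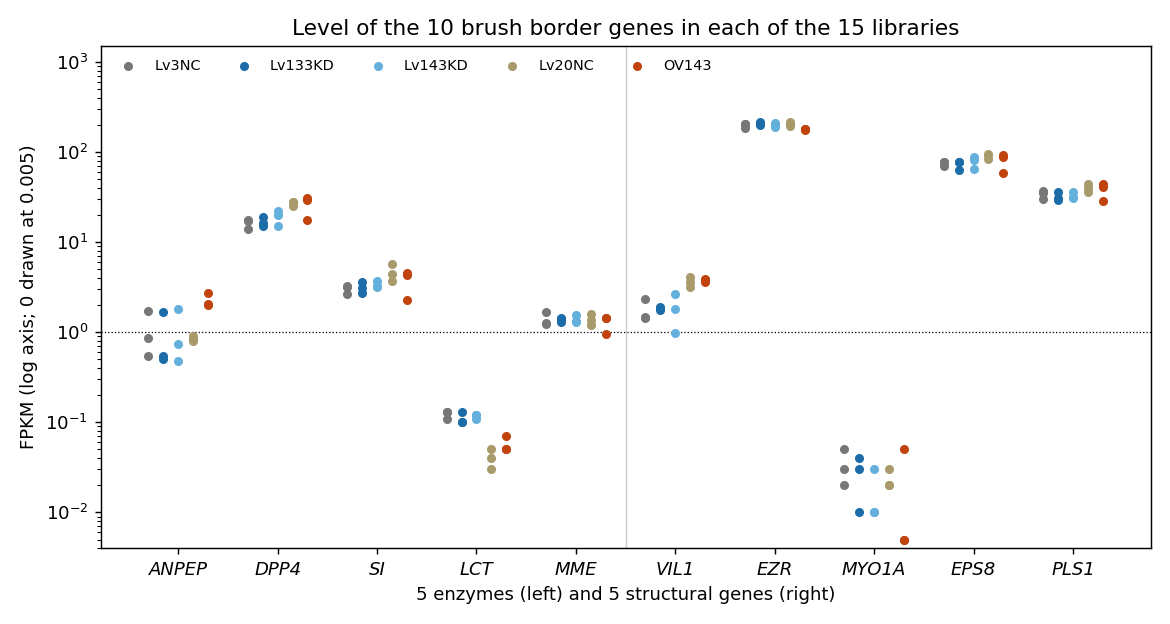
FPKM of the 10 genes (log axis) in each library, coloured by vector group, with 1 point per library; the dotted line is 1 FPKM and a value of 0 is drawn at 0.005. EZR, EPS8, PLS1 and DPP4 lie highest in all 15 libraries, and LCT and MYO1A lie lowest.

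A gene was tested where at least 3 libraries of the table reached 1 FPKM, which 8 of the 10 genes did in each table. LCT and MYO1A did not reach 1 FPKM in any library and were not tested. LCT, lactase, was at 0.11, 0.13 and 0.13 FPKM in Lv3NC, 0.10, 0.13 and 0.10 in Lv133KD, 0.12, 0.11 and 0.12 in Lv143KD, 0.05, 0.03 and 0.04 in Lv20NC and 0.05, 0.07 and 0.05 in OV143. MYO1A, the myosin that links the actin bundle to the membrane, was at 0.01 to 0.05 FPKM in the 9 knockdown-table libraries, at 0.02, 0.02 and 0.03 in Lv20NC, and at 0.05 and then listed 0 and 0 in OV143. Both genes were thus near the lower end of what values with 2 decimals can show.

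The miR-143 overexpression comparison gave the largest difference of a tested member, that of ANPEP. ANPEP (NCBI Gene 397520; chromosome 7 from 55351081 to 55373856 of Sscrofa11.1), which encodes aminopeptidase N, was at 0.84, 0.90 and 0.79 FPKM in Lv20NC replicates 1, 2 and 3, and at 2.03, 2.74 and 1.99 FPKM in OV143. All 3 OV143 libraries lay above all 3 controls, and the same-numbered pairs gave ratios of 2.42, 3.04 and 2.52. The group means were 2.25 ± 0.422 against 0.843 ± 0.0551 FPKM (SD, n = 3 each), a ratio of 2.67. On the log2(FPKM + 1) scale, which understates the change of low genes, the log2 fold change was 0.81 (SE 0.114, limma adjusted p = 0.0856), above the threshold of 0.05. With the replicate number as a block the same fold change passed (SE 0.109, 95% interval 0.57 to 1.06, adjusted p = 0.00808).

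The ANPEP call has limits. ANPEP passed the filter on low values in this table through the 3 OV143 libraries alone, so its difference is partly a condition of its being tested. With no filter its adjusted p was 0.139 without and 0.248 with the block. With the block and the filter, ANPEP passed without replicate number 1 (adjusted p = 6.73e-06), 2 (5.07e-06) or 3 (2.03e-04), in fits of 4 libraries whose 1 residual degree of freedom per gene is moderated toward the trend over all genes. Without the block, where ANPEP did not pass, leaving out OV143 replicate 2 gave a log2 fold change of 0.71 that did (adjusted p = 0.00429), and leaving out any other single library gave adjusted p values of 0.205 to 0.659.

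Across all 11506 genes tested in that table, 0% passed without the block (0 genes; 1304 at an unadjusted p under 0.05, smallest adjusted p 0.0590) and 1.94% passed with it (223 genes). Of the 8 members tested, 0 passed without the block and 1, ANPEP, with it, a count that is not read against this share because the filter took ANPEP in through the group where it is high. Complete separation with OV143 above Lv20NC was seen in 8.96% of all genes tested and, of the members, in ANPEP; separation with OV143 below was seen in 12.9% and, of the members, in EZR.

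**Figure D2:**
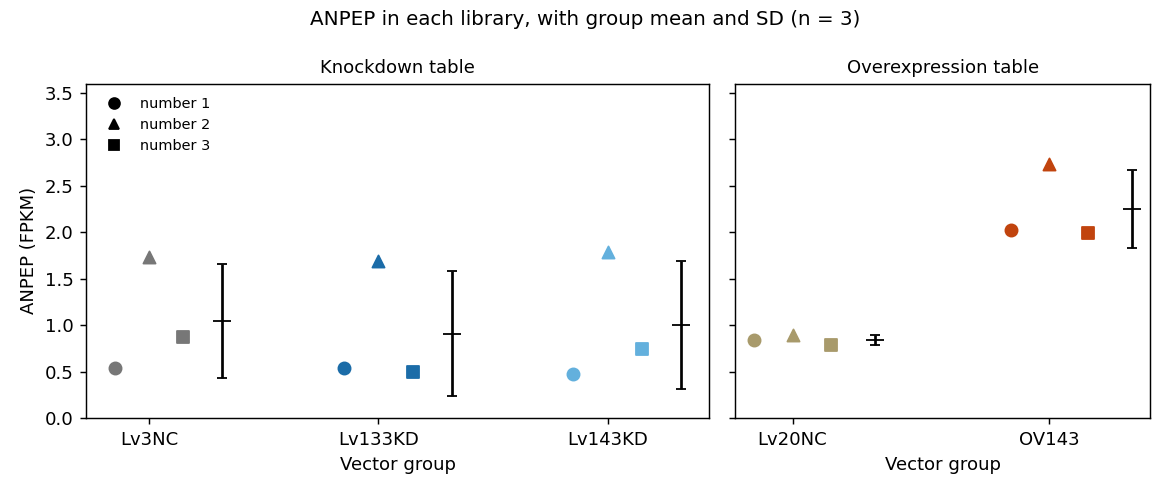
ANPEP in FPKM in each library of the knockdown table (left) and the overexpression table (right), with the replicate number as the symbol and the group mean ± SD (n = 3) in black. The OV143 libraries lie at 1.99 to 2.74 FPKM, all above Lv20NC, and in the knockdown table the 3 libraries numbered 2 lie at 1.69 to 1.79 FPKM, above all others.

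Cell type markers were read beside ANPEP. The 7 enterocyte markers summed to 21.81 to 24.53 FPKM in OV143 and 18.63 to 23.66 in Lv20NC, overlapping. APOA1 (1.80 against 1.47) and APOA4 (2.02 against 0.94) were higher with no overlap, while the others, such as SLC5A1 (18.3 against 18.1), overlapped. The 4 epithelial markers overlapped in sum. EPCAM was higher (653.4 against 537.9) and CDH1 lower (203.6 against 249.5) with no overlap, while KRT8 and KRT18 overlapped. The 3 smooth muscle markers summed to 2.70 to 4.19 FPKM in OV143 and 2.26 to 2.40 in Lv20NC, and the 3 enteroendocrine markers to 0.26 to 0.34 against 0.18 to 0.19. The 3 endothelial markers summed to 4.93 to 6.42 against 6.52 to 6.81 FPKM. These 3 lists did not overlap, but NEUROD1 was lower in OV143 (0.0933 against 0.107) and KDR higher (0.227 against 0.17), opposite to their sums. No enteroendocrine value was above 0.19 FPKM. Of single genes tested, 8.96% separated upward and 12.9% downward. The 4 listed fibroblast markers summed to 2.52 to 2.72 against 2.16 to 2.70 FPKM and the 3 listed leukocyte markers to 0.52 to 0.87 against 0.59 to 0.80, both overlapping. Of the smooth muscle markers, DES was at 3.28 ± 0.781 FPKM in OV143 and 2.14 ± 0.0954 in Lv20NC (SD, n = 3 each), with no overlap (limma adjusted p = 0.325). MYH11 was at 0.0433 ± 0.00577 against 0.02 ± 0.01 FPKM, also with no overlap, and ACTA2 at 0.21 ± 0.0866 against 0.167 ± 0.0764. Of the fibroblast markers, COL1A1 averaged 2.06 FPKM over the 6 libraries and DCN 0.00667. The part of these cell types in the ANPEP difference was not tested.

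EZR (NCBI Gene 100152815; chromosome 1 from 8403362 to 8452750), the ezrin that ties actin to the membrane, was lower in OV143, without passing the test. It was at 212.07, 207.18 and 194.3 FPKM in Lv20NC and at 177.82, 174.71 and 181.14 in OV143, with no overlap. The means were 177.9 ± 3.22 against 204.5 ± 9.18 FPKM (SD, n = 3 each), a log2 fold change of -0.20 (SE 0.0911, limma adjusted p = 0.469, and 0.294 with the block). Without OV143 replicate 2 it was -0.19 (adjusted p = 0.196).

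The other 6 tested members overlapped between OV143 and Lv20NC, and for 5 of them OV143 replicate 2 held the lowest value. SI (chromosome 13 from 104296281 to 104379558), sucrase-isomaltase, was at 4.44, 3.68 and 5.70 FPKM in Lv20NC and 4.51, 2.30 and 4.28 in OV143 (log2 fold change -0.28, limma adjusted p = 0.664). EPS8 (chromosome 5 from 56817445 to 57005117), the actin capping and bundling protein of microvillus tips, was at 92.64, 84.03 and 95.21 FPKM and then 93.46, 57.8 and 87.35 (log2 fold change -0.21, adjusted p = 0.679). DPP4 (chromosome 15 from 68661764 to 68742961), dipeptidyl peptidase 4, was at 27.52, 24.85 and 27.94 FPKM and then 30.8, 17.71 and 29.08 (log2 fold change -0.08, adjusted p = 0.884). For each of these 3 genes the other 5 libraries lay above it.

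PLS1 (chromosome 13 from 83307692 to 83434133), the bundling protein plastin 1, was at 40.15, 35.93 and 43.91 FPKM in Lv20NC and 43.75, 28.58 and 41.28 in OV143 (log2 fold change -0.10, limma adjusted p = 0.844). MME (chromosome 13 from 95018395 to 95122977), neprilysin, was at 1.35, 1.19 and 1.57 FPKM and then 1.44, 0.96 and 1.44 (log2 fold change -0.06, adjusted p = 0.866). OV143 replicate 2 was again the lowest library for both. VIL1 (chromosome 15 from 120463470 to 120494772), villin, was at 3.56, 4.14 and 3.16 FPKM and then 3.88, 3.75 and 3.59, and OV143 replicate 2 lay between the other 2 libraries of its group (log2 fold change 0.04, adjusted p = 0.897). Without OV143 replicate 2, the log2 fold changes were 0.16 for DPP4, -0.04 for SI, 0.045 for MME, 0.04 for VIL1, -0.0023 for EPS8 and 0.09 for PLS1, with adjusted p values of 0.303 to 0.991.

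**Figure D3:**
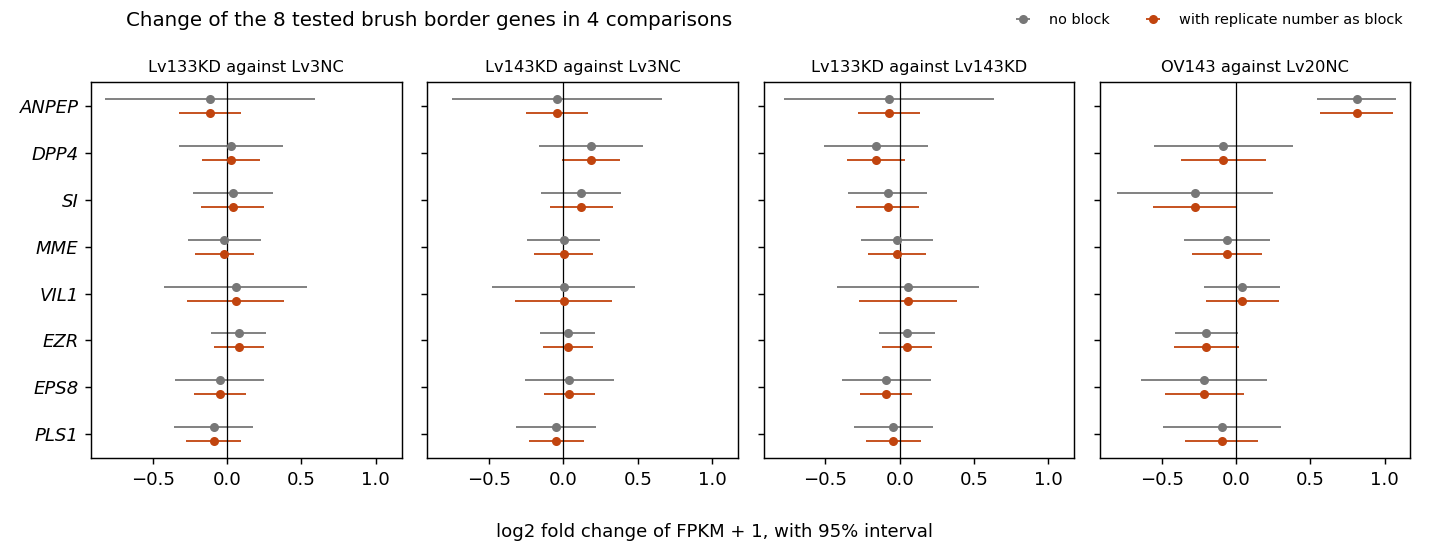
Log2 fold change of FPKM + 1 with its 95% interval for the 8 tested genes in the 4 comparisons, without (grey) and with (orange) the replicate number as a block. ANPEP in OV143 against Lv20NC is at 0.81, and every interval of the other 7 genes, and of ANPEP in the knockdown comparisons, includes 0.

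In the knockdown table no member passed the test in any of the 3 comparisons, without or with the block. The 2 comparisons against Lv3NC share those controls, so their values are set side by side. For Lv133KD, 0.0172% of the 11645 genes tested passed without the block (2 genes) and 0.258% with it (30 genes); for Lv143KD, 0.0172% (2 genes) and 0.172% (20 genes). For Lv133KD against Lv143KD 0% passed in both fits (0 genes; 15 at an unadjusted p under 0.05, and 209 with the block).

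Among the enzymes, DPP4 was at 14.13, 17.3 and 17.77 FPKM in Lv3NC, 14.94, 18.76 and 16.42 in Lv133KD, and 14.98, 21.96 and 19.85 in Lv143KD. It was higher in Lv143KD than in the same-numbered Lv3NC library in 3 of 3 pairs, with ratios of 1.06, 1.27 and 1.12, but the groups overlapped (log2 fold change 0.19, SE 0.156, limma adjusted p = 1.00, and SE 0.0864, adjusted p = 0.878 with the block). In Lv133KD the log2 fold change of DPP4 was 0.03 (adjusted p = 0.980).

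SI was at 3.19, 2.64 and 3.23 FPKM in Lv3NC, 2.71, 3.11 and 3.59 in Lv133KD, and 3.25, 3.18 and 3.67 in Lv143KD. Its log2 fold changes were 0.04 and 0.12, and in Lv143KD it too was higher in 3 of 3 same-numbered pairs, with ratios of 1.02, 1.20 and 1.14 (limma adjusted p = 1.00 without and 0.999 with the block). MME was at 1.24, 1.27 and 1.69 FPKM in Lv3NC, 1.42, 1.28 and 1.39 in Lv133KD, and 1.29, 1.34 and 1.56 in Lv143KD, with log2 fold changes of -0.02 and 0.0014. The groups of both genes overlapped throughout. ANPEP was at 0.54, 1.73 and 0.87 FPKM in Lv3NC, 0.54, 1.69 and 0.50 in Lv133KD, and 0.48, 1.79 and 0.74 in Lv143KD. Within each of these groups the ANPEP library numbered 2 was the highest, and the groups covered nearly the same range (log2 fold changes -0.11 and -0.04).

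Among the structural genes, EZR was at 206.39, 203.08 and 183.75 FPKM in Lv3NC, 215.33, 199.72 and 210.44 in Lv133KD, and 208.06, 190.7 and 206.0 in Lv143KD. Its log2 fold changes were 0.08 (SE 0.0829, 95% interval -0.11 to 0.26) and 0.03 (95% interval -0.16 to 0.22). EPS8 was at 70.53, 76.74 and 78.28 FPKM in Lv3NC, 63.55, 76.71 and 78.17 in Lv133KD, and 64.31, 81.24 and 88.32 in Lv143KD. The EPS8 groups overlapped, and the library numbered 1 was the lowest in each. PLS1 was at 37.12, 29.81 and 35.18 FPKM in Lv3NC, 30.67, 29.18 and 35.78 in Lv133KD, and 31.78, 30.83 and 35.78 in Lv143KD. VIL1 was at 2.34, 1.45 and 1.47 FPKM in Lv3NC, 1.89, 1.77 and 1.85 in Lv133KD, and 2.65, 1.81 and 0.98 in Lv143KD, and its highest library was 2.70 times its lowest, against 1.17 to 1.39 times for EZR, EPS8 and PLS1. Over the 8 members, log2 fold changes ran from -0.11 (ANPEP) to 0.08 (EZR) in Lv133KD, with adjusted p values of 0.926 to 0.981 without the block. In Lv143KD they ran from -0.05 (PLS1) to 0.19 (DPP4), and between Lv133KD and Lv143KD from -0.16 (DPP4) to 0.06 (VIL1). The 6 listed enterocyte markers summed to 6.14 to 6.88 FPKM in Lv3NC, 3.61 to 5.75 in Lv133KD and 4.32 to 5.57 in Lv143KD. The 4 leukocyte markers, each averaging under 1 FPKM, summed to 1.18 to 1.26, 0.72 to 1.06 and 0.67 to 1.1. Both knockdown groups lay below the shared controls in these sums, while the other marker lists overlapped with the controls. No marker passed the test, and the part of these cell types was not tested.

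The larger differences of the knockdown table lay between replicate numbers. The numbers 1 to 3 occur in every group, and the labels do not say what they mark. An F test of the number in the fit with group and number called 36.6% of all genes tested (4266 of 11645) and, of the members, 3 of 8. The members' count is not read against this share, because it holds ANPEP, which the filter took in through the libraries where it is high. Over all genes tested, the median share of the sum of squares of log2(FPKM + 1) was 58.0% for the number and 13.1% for the group. For ANPEP the number took up 95.6% and the group 1.53%. These 2 shares are not read against the medians, for the same reason.

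ANPEP was at 1.69 to 1.79 FPKM in the 3 libraries numbered 2, against 0.48 to 0.54 in those numbered 1 and 0.50 to 0.87 in those numbered 3 (limma adjusted p = 0.00101). The mean of number 2 was 3.34 times that of number 1 and 2.47 times that of number 3. Number 2 lay above all other libraries in 12.1% of the genes tested. ANPEP passed the filter in this table through the libraries numbered 2 alone, and with no filter the adjusted p was 0.00970. It passed whichever library was left out (adjusted p from 5.34e-05 to 0.0127). ANPEP was also highest in the library numbered 2 in each of the 5 groups, as were 7.03% of the genes tested in both tables, although the number took up 4.61% of its sum of squares in the overexpression table (adjusted p = 0.50).

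DPP4 and EPS8 were lowest in the libraries numbered 1. DPP4 was at 14.13 to 14.98 FPKM there and at 16.42 to 21.96 in the other 6 libraries (limma adjusted p = 0.0212). EPS8 was at 63.55 to 70.53 FPKM there and at 76.71 to 88.32 in the other 6 (adjusted p = 0.0299). Number 1 lay below all other libraries in 1.40% of the genes tested. The call of DPP4 was lost without Lv3NC replicate 1 (adjusted p = 0.0576), Lv133KD replicate 2 (0.0507), or Lv143KD replicate 1 (0.134), 2 (0.0981) or 3 (0.0610). That of EPS8 was lost without Lv3NC replicate 2 (0.0545), Lv133KD replicate 1 (0.0976) or 2 (0.0547), or Lv143KD replicate 1 (0.197), 2 (0.0920) or 3 (0.0971).

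VIL1 was at 1.89 to 2.65 FPKM in the libraries numbered 1 and at 0.98 to 1.85 in the others, an arrangement seen in 4.46% of the genes tested, and did not pass (limma adjusted p = 0.0771). It passed without Lv133KD replicate 1 (0.0322) or Lv133KD replicate 3 (0.00899). PLS1, SI, MME and EZR had adjusted p values of 0.0925, 0.249, 0.302 and 0.564. The 4 epithelial markers summed to 1403 to 1507 FPKM in number 1, 1354 to 1483 in number 2 and 1134 to 1259 in number 3. The 5 fibroblast markers summed to 3.68 to 3.88, 4.12 to 5.71 and 3.13 to 6.39 FPKM, and the 3 smooth muscle markers to 1.08 to 1.49, 1.54 to 2.14 and 1.45 to 2.15. PTPRC, the defining leukocyte gene, is listed at 0 in all 9 libraries, and the part of other cell types in these differences was not tested.

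In the overexpression table the F test of the number called 0.0521% of all genes (6 of 11506; 3010 at an unadjusted p under 0.05) and 0 of the 8 members. The 2 libraries numbered 2 lay below the other 4 for DPP4, SI, MME, EPS8 and PLS1, 5 of the 8 members tested, where 20.2% of all genes tested did. In each of these 5 genes Lv20NC replicate 2 was the lowest of its group and OV143 replicate 2 was lower still. DPP4, for example, was at 24.85 and 17.71 FPKM in these libraries and at 27.52 to 30.8 in the others (limma adjusted p = 0.158). DPP4, SI, EPS8 and PLS1 passed without Lv20NC replicate 1 (adjusted p from 0.00324 to 0.0406) or Lv20NC replicate 2 (2.29e-09 to 3.56e-06), and SI passed without OV143 replicate 1 (0.0240). These fits leave 1 number with a single library, assumed to vary like the others, and their 1 residual degree of freedom per gene is moderated in the same way. Without Lv20NC replicate 2 that single library is OV143 replicate 2, which stands apart by its FPKM sum. For EZR the group took up 85.9% of the sum of squares, where the median over all genes tested in this table was 18.9%. For ANPEP the group took up 93.5%. That share is not read against the median, because the filter took ANPEP in through the OV143 libraries where it is high.

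**Figure D4:**
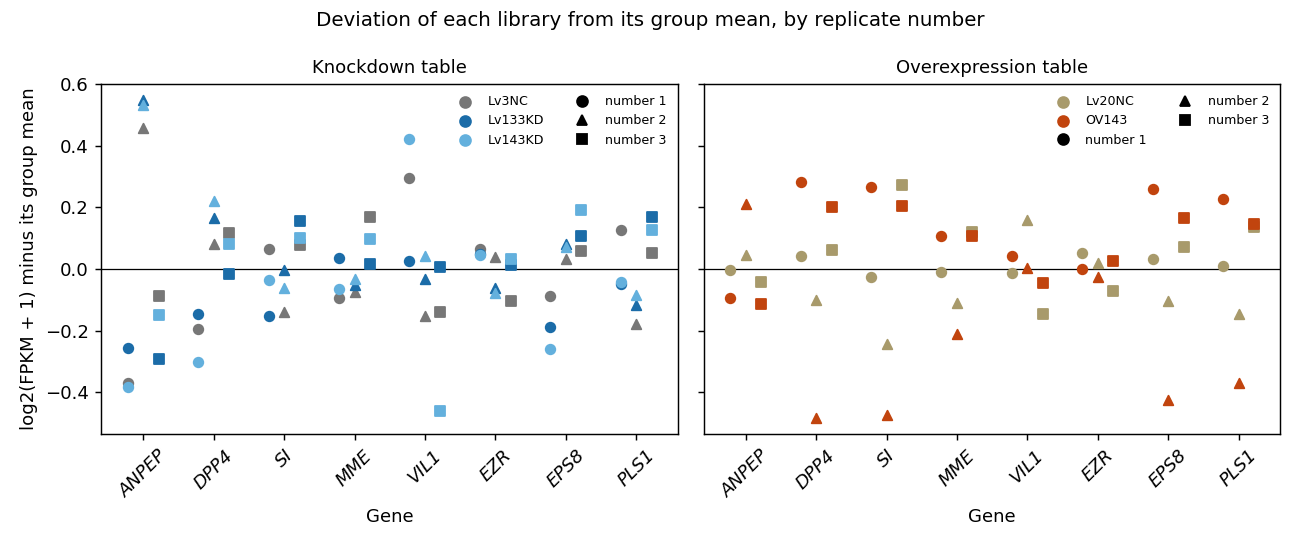
Deviation of log2(FPKM + 1) from its group mean for the 8 tested genes, by library, with the replicate number as the symbol and the vector group as the colour. In the knockdown table (left) ANPEP is high in the 3 libraries numbered 2 and DPP4 and EPS8 are low in those numbered 1; in the overexpression table (right) DPP4, SI, MME, EPS8 and PLS1 are low in those numbered 2.

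The 2 control vectors sit in different tables, so their levels carry no test. VIL1 averaged 1.75 ± 0.508 FPKM in Lv3NC and 3.62 ± 0.493 in Lv20NC (SD, n = 3 each), a ratio of 2.06 with no overlap. DPP4 averaged 16.4 ± 1.98 and 26.8 ± 1.68 FPKM (ratio 1.63), and SI 3.02 ± 0.330 and 4.61 ± 1.02 (ratio 1.53), both also with no overlap. The ratio was 1.21 for EPS8, again with no overlap. Where the controls overlapped it was 1.18 for PLS1, 1.03 for EZR, 0.979 for MME, 0.806 for ANPEP and 0.70 for MYO1A. LCT was lower in Lv20NC, at 0.123 ± 0.0115 and 0.04 ± 0.01 FPKM (ratio 0.324), with no overlap. In these ratios the separate normalisation and a difference between the cells cannot be told apart. How many of all genes also did not overlap between the 2 controls was not counted, so the lack of overlap is not read as a trait of these members.

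Other genes of the brush border came from 5 lists. Of 16 other hydrolases and peptidases, 15 were listed in the knockdown table and 13 in the overexpression table, and 13 and 8 of these averaged under 1 FPKM. GGT1, a gamma-glutamyltransferase, was the highest of them in both tables, at 4.18 and 7.14 FPKM. FOLH1B, to which the symbol of the folate hydrolase FOLH1 was matched, was at 1.51 and 1.27, next after GGT1 in the knockdown table but below TREH (1.58) and ACE (1.38) in the overexpression table. The 6 genes of the intermicrovillar adhesion complex were split. CDHR2, a protocadherin, averaged 6.83 and 9.46 FPKM and USH1C, its scaffold harmonin, 9.76 and 10.5, with CALML4 the third gene tested, while the other 3 genes averaged under 1 FPKM in both tables.

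The cytoskeletal lists were measured in full. All 11 actin bundlers and EPS8 relatives, all 10 ezrin relatives, their kinases and scaffolds, and all 9 apical myosins and their light chains were tested in both tables. The highest of the first list were EPS8L2 at 65.8 and 43.8 FPKM and EPS8L3 at 51.9 and 46.7, both relatives of EPS8. MSN (moesin) at 121.1 and 144.4 FPKM and RDX (radixin) at 88.7 and 95.3 led the second, below EZR in each table. In the third, the non-muscle myosin MYH9 averaged 91.9 and 75.7 FPKM, against 0.0256 and 0.02 for MYO1A.

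**Figure D5:**
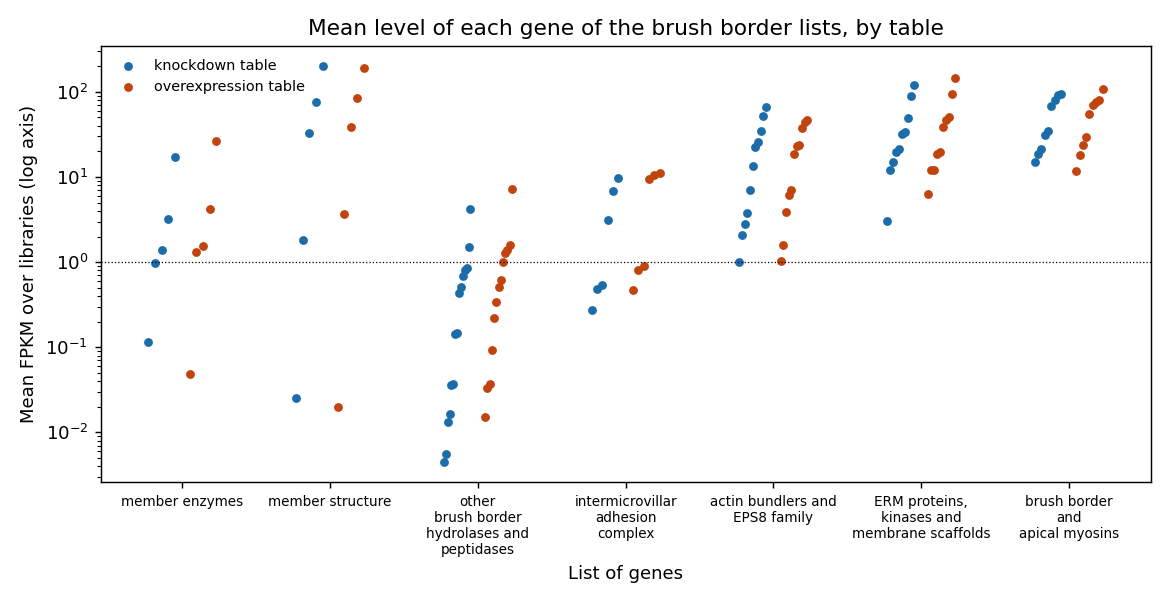
Mean FPKM (log axis) of each listed gene in the 9 knockdown-table libraries (blue) and the 6 overexpression-table libraries (orange), for the 10 genes and 5 lists of other brush border genes, sorted within each list; the dotted line is 1 FPKM. Most other hydrolases lie under 1 FPKM, while all bundlers, ezrin relatives and apical myosins lie above it.

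None of the genes of these 5 lists passed the limma test in any of the 4 comparisons, without or with the block. In OV143, 3 of 3 tested adhesion genes had a higher mean log value (median log2 fold change 0.03), while 8 of 11 bundlers and EPS8 relatives (-0.07), 8 of 10 ezrin relatives, kinases and scaffolds (-0.15) and 8 of 9 myosin genes (-0.12) had a lower one. Over all 11506 genes tested, 5271 had a higher mean log value and the median was -0.02. Over the 4 tested structural members the median was -0.15. No count or median is given for the hydrolases, because NT5E, an ectonucleotidase and 1 of the 5 tested, reached the filter through the OV143 libraries alone (1.19 ± 0.0306 against 0.823 ± 0.0874 FPKM, SD, n = 3 each), nor for the member enzymes, which hold ANPEP. ESPN, espin, 1 of the 3 bundlers with a higher value, also reached it through OV143 alone (1.22 ± 0.211 against 0.827 ± 0.0833 FPKM). MSN was at 154.92, 141.07 and 155.38 FPKM in Lv20NC and 148.22, 118.31 and 148.41 in OV143 (adjusted p = 0.715). RDX was at 103.33, 78.22 and 111.79 FPKM and then 115.91, 45.24 and 117.38 (adjusted p = 0.862). As for EPS8 and DPP4, the lowest RDX and MSN values were those of OV143 replicate 2. In the knockdown table the list medians ran from -0.06 to 0.08 for Lv133KD and from -0.05 to 0.07 for Lv143KD.

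Genes whose pattern was most like those of EZR and EPS8, the 2 members with the highest levels, were sought among 11141 genes tested in both tables, by the smaller of the 2 Pearson correlations of log2(FPKM + 1) over the 9 and the 6 libraries. For EZR they were KIAA1522 (r = 0.94 and 0.94), AFDN (0.94 and 0.93), which encodes the junction protein afadin, and XPO6 (0.95 and 0.93), the nuclear export receptor of actin and profilin. For EPS8 they were CHUK (0.90 and 0.99), a kinase of the NF-kB pathway, KTN1 (0.90 and 0.97), which encodes kinectin, and FCHO2 (0.89 and 0.99), an endocytic membrane-bending protein. These are the highest of many correlations over libraries that share their replicate numbers, and OV143 replicate 2 is the lowest library of EPS8 in the overexpression table, so they are descriptions.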

How the data were processed

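RNA-seq of IPEC-J2 cells gave 15 libraries. Per the file headers, the authors deposited FPKM of each gene, rounded to 2 decimals, in a table of 9 libraries and another of 6. The submitters' processing notes name Sscrofa11.1; aligner, counting tool and strand use: not given in the sources used here. Symbols and 1-based coordinates came from a RefSeq gene table of that build (18618 of 19000 and 16949 of 17001 genes matched).

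Each table was fitted whole on log2(FPKM + 1) with limma 3.58.1 in R 4.3.3 (trended empirical Bayes, two-sided, Benjamini-Hochberg, called at an adjusted p under 0.05), for genes that 3 or more libraries of the table held at 1 FPKM or above (11645 and 11506), and was tested on simulated data. Depth is unknown; the median SE was 0.144 and 0.131 (0.0969 and 0.110 with the block).

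Deviations of same-numbered libraries from their group means correlated at 0.27 to 0.852 (9 pairs) and 0.229 to 0.716 (3 pairs). All were above the limit of 0.1 used here for pairing, so blocked values stand beside each result whose call they change. Libraries of different numbers correlated at -0.87 to 0.379 (18 pairs) and -0.676 to 0.54 (6 pairs). Some of these also passed the limit, such as Lv20NC replicate 3 with OV143 replicate 1 (0.54). The limit therefore does not show that the numbers mark true pairs, and the blocked calls depend on that assumption. What a number marks is not stated in the labels.

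The members and lists were chosen with earlier results of these data known. Named beside the members are, of each list, genes that passed, the 2 highest by mean FPKM and genes listed at 0 throughout, and the 3 genes most correlated with each of the 2 highest members. The result of 1 gene that this rule names is not reported here. Alternatives were other pseudocounts, no filter, quantile or upper quartile scaling, the block, and leaving out libraries.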

Additional observations from a re-analysis of the deposited data

How the results depend on the processing

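Of 664 refits of single members, 596 kept their side of the threshold and, for group comparisons, their direction. Of the rest, 12 fell short of the threshold, 13 newly passed and 43 turned sign, and none of the 43 had been called. The 664 include the F tests of the replicate number, which have no direction and could not turn sign. Settings combined with the block, and keeping the whole table's gene set when a library is left out, were chosen after seeing the data. The 3 knockdown-table comparisons called no member under any setting, and the block changed no other member's call than that of ANPEP in OV143. Genes called in Lv133KD against Lv3NC (2) became 30 with the replicate block, 1 with no filter and 0 without any 1 library; in Lv143KD (2) they became 20, 1 and 0. With the block, no filter gave 0 genes for both, and leaving out a replicate number gave 1 to 72 for Lv133KD and 2 to 60 for Lv143KD.

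In OV143, genes called (0) became 223 with the replicate block (1 member), 6 with quantile and 4 with upper quartile scaling, and 0 to 513 without 1 library (513 without OV143 replicate 2), with 0 to 1 members. With the block, no filter gave 0 genes and 0 members, and leaving out a number 297 to 1466 genes. ANPEP in OV143 had log2 fold changes of 1.03 and 1.31 at pseudocounts of 0.5 and 0.1, and 0.73 to 0.86 with the block without 1 number.

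The replicate number called 1445 to 6915 genes (4266 in all libraries) and 1 to 4 members in the knockdown table without 1 library; in the overexpression table it called 144 to 6268 genes (6 in all libraries) and 0 to 4 members, and 2 genes at a pseudocount of 0.1 and 0 with no filter.

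Signs turned for SI in Lv133KD with quantile scaling (-0.00085) and for VIL1 in Lv143KD at pseudocounts of 0.5 (-0.0062) and 0.1 (-0.022). Leaving out 1 library gave, for Lv133KD against Lv3NC, ANPEP -0.39 to 0.12, DPP4 -0.071 to 0.099, SI -0.039 to 0.11, MME -0.065 to 0.067, VIL1 -0.018 to 0.21 and EPS8 -0.10 to 0.043. For Lv143KD against Lv3NC it gave ANPEP -0.31 to 0.19, MME -0.047 to 0.086, VIL1 -0.21 to 0.23, EZR -0.023 to 0.068, EPS8 -0.054 to 0.17 and PLS1 -0.14 to 0.015. For Lv133KD against Lv143KD it gave ANPEP -0.34 to 0.20, MME -0.051 to 0.029, VIL1 -0.18 to 0.27, EPS8 -0.22 to 0.0043 and PLS1 -0.13 to 0.020. For OV143 against Lv20NC it gave DPP4 -0.23 to 0.16, MME -0.12 to 0.045, VIL1 -0.031 to 0.12 and PLS1 -0.21 to 0.090. Apart from fewer samples, and more genes tested with no filter, the cause of these shifts was not tested. Values near 0.01 FPKM, as for MYO1A, are limited by the 2 decimals of the tables.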

Other observations

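TREH, the brush border trehalase, and SLC5A1, the apical sodium-glucose cotransporter, were chosen after their values were seen. TREH was at 0.92, 1.18 and 1.03 FPKM in Lv20NC and 1.59, 3.38 and 1.40 in OV143, with no overlap (log2 fold change 0.56, limma adjusted p = 0.406, and 0.0788 with the replicate block). Among the knockdown libraries it was at 0.92, 1.04 and 1.40 FPKM in Lv3NC, 0.53, 0.65 and 0.47 in Lv133KD and 0.64, 0.74 and 0.87 in Lv143KD. Both knockdown groups lay below the control libraries they share, but TREH did not reach the filter on low values there and has no test. Of the 11645 genes tested there, which leave out TREH, 388 lay below Lv3NC with no overlap in Lv133KD and 236 in Lv143KD. How many lay below in both groups was not counted. In OV143, 8.96% of the genes tested lay above all controls.

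GGT1 was at 6.13, 6.54 and 6.01 FPKM in Lv20NC and 6.64, 9.83 and 7.66 in OV143, again with no overlap and without passing (limma adjusted p = 0.468, and 0.188 with the block). CALML4, a light chain of the adhesion complex, averaged 3.14 FPKM in the knockdown table and 11 in the overexpression table, and SLC5A1 averaged 1.73 and 18.2. These gaps lie between separately normalised tables and have no test.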
